A study of Drosophila simulans and Drosophila sechellia and Drosophila simulans x Drosophila sechellia with 72 samples.

Results

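Adult flies were compared with third-instar larvae in hybrids of Drosophila simulans and Drosophila sechellia, using all 24 hybrid libraries of a series of 72. The 12 adult and 12 larval libraries were chosen by genotype and stage from the labels. Each value is the sum of the 2 columns that give a library's D. simulans and D. sechellia alleles, in FPKM (fragments per kilobase of transcript, scaled to the mapped total), and stages were compared over 4 media histories weighted equally. The series reared both species and their hybrids on standard medium (S) or medium with octanoic acid (O) in the previous and in the current generation. Octanoic acid is the compound that makes noni toxic to most flies, and D. sechellia lives on that fruit. Groups are written with the previous medium first, so in OS the parents met octanoic acid and the sampled animals did not. Every stage, genotype and media history (SS, SO, OS and OO) had 3 biological replicates. Each library came from 1 homogenate of 10 whole animals, labelled female at both stages, and polyA RNA was sequenced. Rearing was at 20 °C, with lights on for 16 h and off for 8 h. The labels do not give the direction of the cross. Hybrids carry 1 genome of each species within the same cells, apart from the single X of males.

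Between the larval and the adult stage a fly pupates, most larval tissues are broken down, and the adult body is built from imaginal discs and other set-aside cells under the control of ecdysone. A whole third-instar larva is mainly feeding gut, fat body, muscle, epidermis with its cuticle, and growing discs. A whole adult female holds large ovaries with developing eggs, compound eyes, and flight muscle rich in mitochondria. In such whole-animal samples more cells of a type and more RNA per cell cannot be told apart.

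The summed FPKM of a library ran from 958731 to 1169425 in adults and from 718845 to 1061817 in larvae, and read depth is unknown. The D. sechellia columns held 79.9 to 88.7% of that sum in adults and 64.4 to 74.2% in larvae. The smallest value above 0 in these columns was also larger in adults (0.257 to 0.877 FPKM) than in larvae (0.0726 to 0.284 FPKM). The 20 most abundant genes took 22.1 to 29.5% of the sum in adults and 29.4 to 45.6% in larvae. Because of such differences, the counts of genes and lists called for stage are also given after median-ratio rescaling, which sets the typical gene present in all 24 libraries to the same level. Pairs of adult libraries correlated at 0.90 to 0.94 across genes, pairs of larval libraries at 0.79 to 0.91, and an adult with a larva at 0.45 to 0.63. The first principal component held 66.9% of the variance and stage accounted for 66.4% of it, against 24.5% between replicates and 1.30 to 1.87% for each term with a medium. The library labelled larva SO replicate 1 had the most genes listed at 0, 2274, against a larval median of 1460. Zeros occur in every library and may include failed estimates, so a gene is only said to be listed at 0.

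The larval libraries, labelled female, also held transcripts known from the testis. Of 17 genes known from the D. melanogaster testis, 16 were listed at 0 in all 12 adult libraries and the other 1 was above 0 in 1 adult library. Their summed level was 0 to 2.67 FPKM in adults and 147 to 1043 FPKM (median 779) in larvae, so all 12 larval libraries lay above all adults. Larva SO replicates 1 and 3 were lowest, at 147 and 171 FPKM. Larvae of the parental species had these transcripts too, at 197 to 1415 FPKM in D. simulans and 403 to 1133 FPKM in D. sechellia. The gene twe, left out of this sum after its values were seen because the female germ line also uses it, was higher in adults, and with it the sums were 41.1 to 109 and 150.5 to 1053 FPKM. How far the make-up of the larval pools contributes to the stage differences was not tested, and sex and stage cannot be told apart where pools differ in both.

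Most genes differed between the stages. Of 7836 genes in the table, 7181 had at least 1 FPKM in at least 3 hybrid libraries and were tested, and 655 were not. With limma and an adjusted p under 0.05, 3572 genes (49.7%) were higher and 1830 (25.5%) lower in adults, 75.2% in all. With a change of 2-fold or more, these were 2963 (41.3%) and 1549 (21.6%). The median gene was 0.67 higher in adults on the log2(FPKM + 1) scale, on which all differences below are given as adult minus larva. After rescaling the median gene was at -0.23, and 2079 genes (28.9%) were higher and 2847 (39.6%) lower. The 2 scales shared 2079 genes called higher and 1827 called lower, while 148 genes were called in opposite directions. All adult libraries lay above all larval libraries for 1308 genes (18.2%) and below them for 423 (5.89%). Both alleles reached 1 FPKM in at least 9 of 12 libraries of a stage for 4475 genes, of which 2712 did so at both stages, 1098 in adults only and 665 in larvae only. The cut at 9 libraries had 282 genes just inside it and 243 just outside, with a median level in their higher stage of 17.9 and 16.0 FPKM. For the 2712 genes, whose choice does not depend on 1 stage alone, 1854 were higher and 274 lower as deposited, and 888 and 889 after rescaling. A gene that passed the filter only through the stage where it is high had to differ, so list counts below are descriptions. Members with both alleles detected at both stages are given apart where their median has another sign than that of the list.

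**Figure D1:**
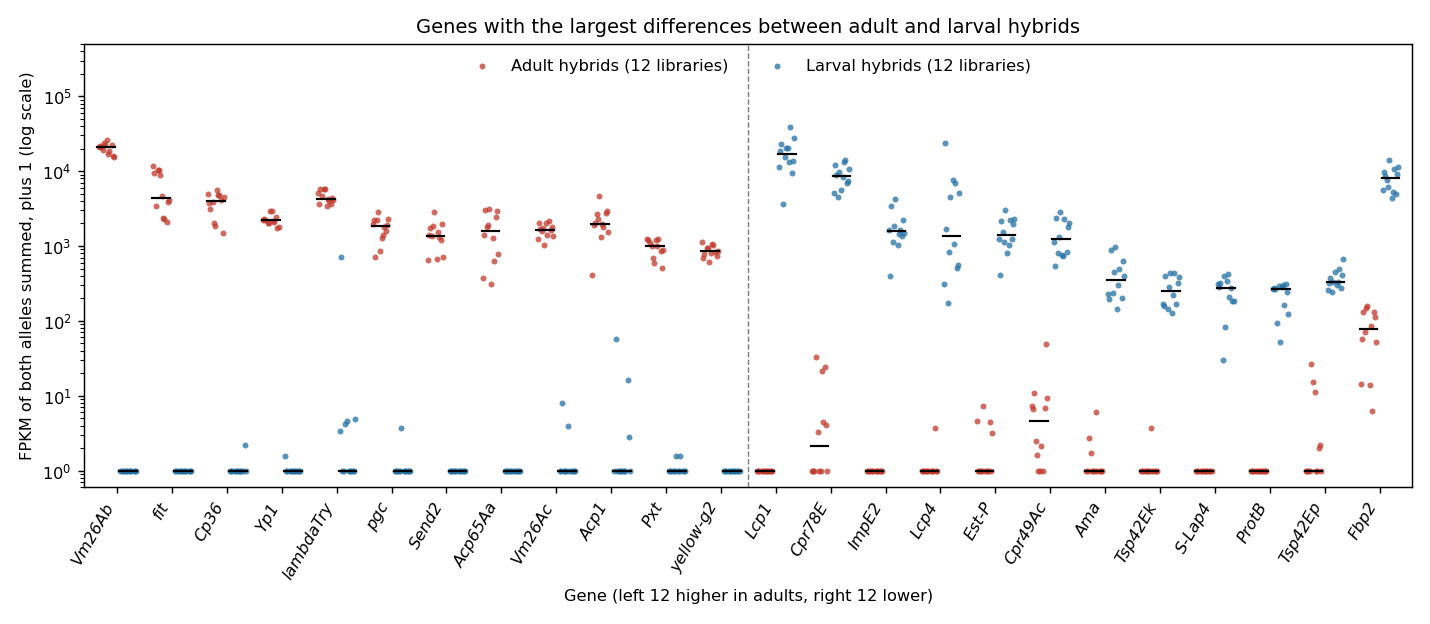
Summed FPKM plus 1 (log axis) of the 12 genes with the largest adult excess and the 12 with the largest larval excess among named genes with both alleles detected. Each point is 1 library (12 adult in red, 12 larval in blue), black lines are medians, and the points of the 2 stages do not overlap for any of these 24 genes.

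Genes of egg production were among those with the largest adult excess. All 15 eggshell genes tested were called higher in adults, with a list median of 8.87, and after rescaling all 15 still were (median 8.32). Follicle cells around the growing egg secrete these proteins. The vitelline membrane gene Vm26Ab ranged from 15336 to 25972 FPKM (median 21040) in adults and was listed at 0 in all 12 larval libraries (limma, adjusted p = 6.9e-28). It was the most abundant gene of the list in adults. The chorion gene Cp36 ranged from 1482 to 5684 FPKM (median 3970.4) in adults and from 0 to 1.198 FPKM (median 0) in larvae, a difference of 11.67 ± 0.20 (SE) with adjusted p = 3.6e-22. Vm26Aa, a second vitelline membrane gene, ranged from 587 to 1076 FPKM (median 782) in adults and was listed at 0 in all 12 larval libraries (adjusted p = 5.9e-23). Adult and larval libraries did not overlap for any of these 3 genes. The eggshell gene yellow-g2 ranged from 612 to 1116 FPKM (median 846) in adults and was listed at 0 in all 12 larval libraries (adjusted p = 5.9e-23), so it too was listed at 0 throughout the larvae. Vm26Ac ranged from 1019 to 2165 FPKM (median 1656) in adults and from 0 to 7.05 FPKM (median 0) in larvae (adjusted p = 6.6e-18). Both alleles of all 15 eggshell genes passed the detection rule in adults only, so their direction is in part set by where they could be detected.

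Yolk and some female reproductive genes followed. Yp1, which encodes a yolk protein made by fat body and follicle cells, ranged from 1752 to 2941 FPKM (median 2199) in adults and from 0 to 0.562 FPKM (median 0) in larvae, a difference of 11.06 ± 0.14 (SE) with adjusted p = 3.5e-24. The female fat body gene fit, whose product acts on feeding, ranged from 2096 to 11579 FPKM (median 4352) in adults and was listed at 0 in all 12 larval libraries (adjusted p = 5.9e-23). It spread over a wider range in adults than Yp1 did. The follicle cell peroxidase gene Pxt ranged from 507 to 1253 FPKM (median 1000.2) in adults and from 0 to 0.584 FPKM (median 0) in larvae (adjusted p = 3.7e-22). Send2, a protease gene of the sperm-storing spermathecae, ranged from 652 to 2848 FPKM (median 1374) in adults and was listed at 0 in all 12 larval libraries (adjusted p = 7.7e-21). Est-6, a carboxylesterase best known from the male ejaculatory duct of D. melanogaster, ranged from 178 to 350 FPKM (median 297) in adults and from 0 to 6.79 FPKM (median 1.84) in larvae, a difference of 6.79 ± 0.27 (SE) with adjusted p = 2.3e-15. In these 5 genes no larval library reached the lowest adult library. SPR, the sex peptide receptor, ranged from 2.16 to 51.3 FPKM (median 21.9) in adults and from 0 to 3.02 FPKM (median 0.373) in larvae, where the stages overlapped (3.88 ± 0.40 SE, adjusted p = 1.9e-08). Nep2, a neprilysin peptidase, went the other way and ranged from 7.75 to 36.8 FPKM (median 25.4) in adults and from 29.3 to 135 FPKM (median 74.9) in larvae (-1.71 ± 0.29 SE, adjusted p = 1.5e-05). Beside 49.7% higher and 25.5% lower over all genes tested (28.9% and 39.6% after rescaling), the reproductive tract list was mixed. Of 6 reproductive tract genes, 3 were called higher and 2 lower (median 2.00), and 3 and 3 after rescaling. The 1 member with both alleles detected at both stages was called lower (-1.71).

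Genes of the oocyte and of the cell cycle were also higher in adults. Of 23 oocyte and maternal genes, 21 were called higher and 1 lower (median 3.50), and 20 and 1 after rescaling. The germ cell gene pgc, which silences transcription in the early germ line, ranged from 711 to 2871 FPKM (median 1872) in adults and from 0 to 2.71 FPKM (median 0) in larvae (adjusted p = 1.2e-19). The gene swa, needed to place bicoid RNA in the egg, ranged from 279.8 to 583 FPKM (median 421) in adults and from 0 to 1.44 FPKM (median 0) in larvae (adjusted p = 1.5e-20). The ovarian tumor gene otu ranged from 105 to 271 FPKM (median 182) in adults and from 0 to 3.14 FPKM (median 1.43) in larvae, a difference of 6.32 ± 0.19 (SE) with adjusted p = 1.3e-17. For these 3 genes most larval libraries were at or close to 0. Of 26 replication and cell cycle genes, 24 were called higher and none lower (median 2.80), and 21 and 0 after rescaling. CycB, a mitotic cyclin, ranged from 511 to 879.9 FPKM (median 721) in adults and from 6.23 to 31.6 FPKM (median 18.2) in larvae, a difference of 5.21 ± 0.22 (SE) with adjusted p = 5.0e-15. The replication origin gene Orc1 ranged from 29.7 to 78.6 FPKM (median 54.8) in adults and from 0 to 3.78 FPKM (median 0.568) in larvae (5.0 ± 0.28 SE, adjusted p = 9.9e-13). The ribonucleotide reductase gene RnrL ranged from 72.1 to 250.1 FPKM (median 149) in adults and from 3.12 to 24.2 FPKM (median 9.32) in larvae (3.86 ± 0.25 SE, adjusted p = 1.1e-11). The stages did not overlap for any of the 3.

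Eye and flight muscle genes showed the adult body. Of 18 phototransduction genes, 17 were called higher and 1 lower (median 4.11), and 16 and 1 after rescaling. Both alleles passed the detection rule in adults only for 15 members, and the 2 members that passed it at both stages were 1 higher and 1 lower (median -0.42). The light-activated channel gene trp ranged from 99.2 to 188 FPKM (median 137) in adults and from 0 to 0.804 FPKM (median 0) in larvae (6.92 ± 0.19 SE, adjusted p = 3.0e-18). Arr1, an arrestin that ends the rhodopsin signal, ranged from 542 to 1144 FPKM (median 738) in adults and from 0 to 12.3 FPKM (median 3.07) in larvae (7.49 ± 0.29 SE, adjusted p = 9.3e-16). All 12 adults were above all larvae for both. The flight muscle troponin gene TpnC4 ranged from 332 to 981 FPKM (median 548) in adults and was listed at 0 in all 12 larval libraries (adjusted p = 5.2e-21), and all 3 genes of flight or adult muscle forms were called higher on both scales. Of 11 muscle genes that both stages use, 11 were called higher as deposited, but after rescaling 7 were higher and 2 lower. Among them the myosin heavy chain gene Mhc ranged from 11.4 to 46.1 FPKM (median 22.6) in adults and from 0 to 3.84 FPKM (median 0.19) in larvae (4.17 ± 0.30 SE, adjusted p = 5.6e-11). The calcium pump gene SERCA ranged from 54.03 to 157 FPKM (median 98.7) in adults and from 6.55 to 16.9 FPKM (median 10.8) in larvae (2.87 ± 0.22 SE, adjusted p = 1.4e-10). The parental species differed here: of these 11 genes, 4 were called higher and 4 lower in D. simulans, and 8 and 0 in D. sechellia. Their summed level in larvae had a median of 823 FPKM in hybrids, 4045 in D. simulans and 7119 in D. sechellia. In adults these medians were 2841, 5474 and 22016 FPKM. Whether hybrid and parental columns share 1 scale is not known. Of 13 neuronal genes, 7 were called higher and 3 lower (median 1.03), and 5 and 5 after rescaling. Over all genes tested 49.7% were higher and 25.5% lower, and 28.9% and 39.6% after rescaling. The 2 neuronal members with both alleles detected at both stages were 1 higher and 1 lower (median -1.64). The synaptic vesicle gene nSyb ranged from 18.8 to 70.2 FPKM (median 54.2) in adults and from 0 to 13.4 FPKM (median 4.03) in larvae (3.21 ± 0.36 SE, adjusted p = 8.4e-08). The lower neuronal genes included ple and Ddc, which also serve the cuticle and are described there. Of 5 clock genes, 3 were called higher and 1 lower, and 3 and 2 after rescaling. The clock gene tim ranged from 9.75 to 35.1 FPKM (median 19.9) in adults and from 0 to 0.877 FPKM (median 0) in larvae (4.28 ± 0.24 SE, adjusted p = 7.0e-13). vri ranged from 3.39 to 18.1 FPKM (median 12.3) in adults and from 10.5 to 47.1 FPKM (median 32.6) in larvae (-1.43 ± 0.25 SE, adjusted p = 2.2e-05).

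Mitochondrial and energy genes were higher in adults. Of 23 complex I genes 20 were called higher and 3 lower, with the same counts after rescaling, and of 25 other respiratory chain and ATP synthase genes 20 were higher and 5 lower on both scales. Cyt-c-p, the main cytochrome c of the fly, ranged from 14873 to 24242 FPKM (median 19069) in adults and from 449 to 1310.4 FPKM (median 722) in larvae, a difference of 4.74 ± 0.15 (SE) with adjusted p = 2.6e-17. The complex IV gene COX4 ranged from 2618 to 4414 FPKM (median 3260.3) in adults and from 273 to 605 FPKM (median 443) in larvae (2.91 ± 0.13 SE, adjusted p = 1.1e-14). ND-B14.7, of complex I, ranged from 3193 to 6124 FPKM (median 4284) in adults and from 461 to 841 FPKM (median 671) in larvae (2.73 ± 0.11 SE, adjusted p = 3.7e-15). Adults lay above larvae in every library for these 3 genes. Of 43 mitochondrial ribosomal protein genes, 41 were called higher and none lower (median 1.84), and 25 and 0 after rescaling. A list named glycolysis and glycogen holds genes of glycolysis and of trehalose, and none of glycogen itself. All 9 of its genes were called higher on both scales, with medians of 2.35 and 1.30. Among them the hexokinase gene Hex-C ranged from 158 to 324 FPKM (median 190) in adults and from 0 to 3.304 FPKM (median 0) in larvae (7.27 ± 0.27 SE, adjusted p = 5.6e-16). Tps1, which makes the blood sugar trehalose, ranged from 286 to 686 FPKM (median 425) in adults and from 0 to 30.6 FPKM (median 5.79) in larvae (6.23 ± 0.46 SE, adjusted p = 1.0e-10).

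Fat synthesis genes were also higher in adults. All 7 lipid synthesis genes were called higher (median 3.72) and 6 of 7 after rescaling. Fatty acid synthase FASN1 ranged from 159 to 337 FPKM (median 228) in adults and from 1.08 to 13.9 FPKM (median 3.03) in larvae, a difference of 5.88 ± 0.23 (SE) with adjusted p = 1.2e-15. ACC, the acetyl-CoA carboxylase that feeds it, ranged from 97.7 to 162 FPKM (median 132) in adults and from 2.72 to 11.8 FPKM (median 5.66) in larvae (4.30 ± 0.19 SE, adjusted p = 1.9e-14). The lowest adult was above the highest larva for both genes. Of 11 genes of lipid storage and oxidation 10 were called higher and none lower, and 5 and 1 after rescaling. The perilipin gene Lsd-2 ranged from 200.3 to 486 FPKM (median 368) in adults and from 21.4 to 121 FPKM (median 48.1) in larvae (2.82 ± 0.27 SE, adjusted p = 7.7e-09). Of 8 juvenile hormone genes 5 were called higher and none lower, and 3 and 2 after rescaling. All genes tested gave 49.7% higher and 25.5% lower, and 28.9% and 39.6% after rescaling. The hormone-degrading hydrolase gene Jheh2 ranged from 273 to 399 FPKM (median 307) in adults and from 28.6 to 147 FPKM (median 81.1) in larvae (1.91 ± 0.21 SE, adjusted p = 4.4e-08).

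Digestive enzyme genes were called in both directions, beside 49.7% higher and 25.5% lower over all genes tested (28.9% and 39.6% after rescaling). Of 21 digestive enzyme genes, 13 were called higher and 5 lower (median 2.10), and 10 higher and 6 lower (median 1.03) after rescaling. The 5 members with both alleles detected at both stages were 2 higher and 2 lower (median -0.42), and 9 others passed that rule in adults only. The trypsin gene lambdaTry ranged from 3413 to 5808 FPKM (median 4299) in adults and from 0 to 707 FPKM (median 0) in larvae (10.64 ± 0.68 SE, adjusted p = 9.4e-12), with 7 larval libraries listed at 0. The serine protease gene Ser8 ranged from 406 to 1025 FPKM (median 666) in adults and from 0 to 4.22 FPKM (median 0) in larvae (9.01 ± 0.28 SE, adjusted p = 1.8e-17). tobi, a glucosidase gene set by the brain insulin system, ranged from 128 to 753 FPKM (median 414) in adults and from 0 to 15.9 FPKM (median 4.57) in larvae (6.12 ± 0.35 SE, adjusted p = 1.6e-12). No larval library reached the adult range for any of these 3 genes.

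**Figure D2:**
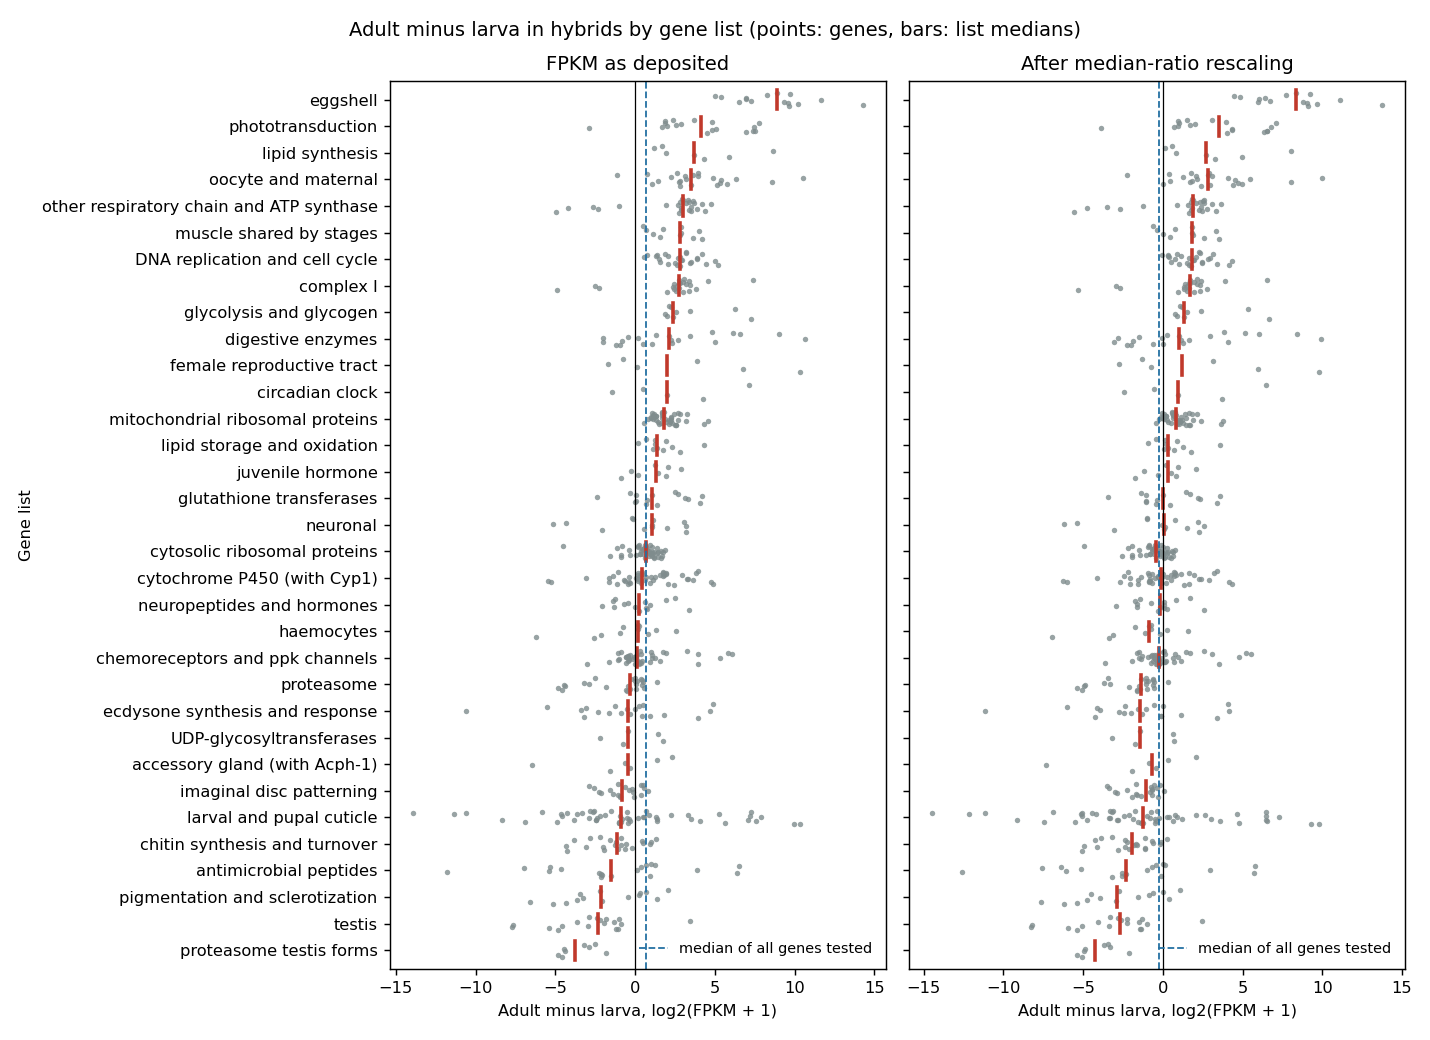
Adult minus larva differences on the log2(FPKM + 1) scale for every gene list with at least 5 tested members, as deposited (left) and after median-ratio rescaling (right). Grey points are genes, red bars list medians and the blue dashed line the median of all genes tested (0.67 and -0.23), and the eggshell list is highest and the testis forms of the proteasome lowest on both scales.

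Cuticle genes changed in both directions, beside 49.7% higher and 25.5% lower over all genes tested (28.9% and 39.6% after rescaling). A list named larval and pupal cuticle also holds adult cuticle genes, such as Acp65Aa and Acp1. Of its 55 genes tested, 16 were called higher and 27 lower in adults (median -0.91), and 14 higher and 29 lower (median -1.26) after rescaling. Only 2 members had both alleles detected at both stages, with 1 call in each direction (median 3.38). Lcp1, a structural protein of larval cuticle with a close copy, Lcp2, that may share its reads, was listed at 0 in all 12 adult libraries and ranged from 3671 to 38579 FPKM (median 17080) in larvae (adjusted p = 8.4e-22). The stages did not overlap. The cuticle gene Cpr78E ranged from 0 to 31.7 FPKM (median 1.14) in adults and from 4515 to 14008 FPKM (median 8627) in larvae, a difference of -11.37 ± 0.54 (SE) with adjusted p = 4.5e-14. Lcp4 ranged from 0 to 2.66 FPKM (median 0) in adults and from 171 to 24097 FPKM (median 1365) in larvae (-10.59 ± 0.61 SE, adjusted p = 1.6e-12). The larval libraries differed widely in Lcp4 yet all lay above the adults. Other members were made by adults, and the adult cuticle gene Acp65Aa ranged from 309 to 3122 FPKM (median 1603) in adults and was listed at 0 in all 12 larval libraries (adjusted p = 4.6e-18). Its pattern was the reverse of that of Lcp1. Cpr62Bb ranged from 131 to 393 FPKM (median 262) in adults and from 0 to 1.54 FPKM (median 0) in larvae (7.88 ± 0.21 SE, adjusted p = 9.9e-19). Cpr49Ab ranged from 1886 to 5101 FPKM (median 2971) in adults and from 2.61 to 49.2 FPKM (median 17.1) in larvae (7.56 ± 0.26 SE, adjusted p = 1.7e-16). The gene Acp1, a further adult cuticle gene, ranged from 409.9 to 4643 FPKM (median 1989.7) in adults and from 0 to 56.6 FPKM (median 0) in larvae (9.96 ± 0.54 SE, adjusted p = 5.8e-13).

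Enzymes that build, harden and colour cuticle were mostly higher in larvae. Of 22 chitin genes 3 were called higher and 14 lower in adults, and none and 19 after rescaling. The 9 members with both alleles detected at both stages were 3 higher and 3 lower (median 0.43). The chitinase gene Cht2 ranged from 17.98 to 66.9 FPKM (median 31.7) in adults and from 142 to 396 FPKM (median 282) in larvae (-3.05 ± 0.24 SE, adjusted p = 2.7e-10). Mmp1, a metalloproteinase that remodels matrix at metamorphosis, ranged from 0.507 to 18.9 FPKM (median 13.1) in adults and from 23.2 to 219.9 FPKM (median 67.3) in larvae (-2.85 ± 0.40 SE, adjusted p = 1.4e-06). The stages did not overlap for either gene. Of 14 pigmentation and sclerotization genes 2 were called higher and 8 lower (median -2.13), and 1 and 10 after rescaling. The tyrosine hydroxylase gene ple ranged from 2.19 to 28.1 FPKM (median 14.6) in adults and from 102 to 891 FPKM (median 479) in larvae (-5.17 ± 0.40 SE, adjusted p = 2.0e-10). Dopa decarboxylase Ddc ranged from 14.9 to 59.4 FPKM (median 39.4) in adults and from 301 to 1246 FPKM (median 784) in larvae (-4.31 ± 0.24 SE, adjusted p = 7.0e-13), and ebony (e), which links dopamine to beta-alanine, ranged from 3.74 to 42.8 FPKM (median 12.6) in adults and from 457 to 3334 FPKM (median 1359.7) in larvae (-6.61 ± 0.36 SE, adjusted p = 6.5e-13). These 3 enzymes act one after the other around dopamine, and every larva lay above every adult for each.

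Larval serum protein genes were lower in adults, and genes of ecdysone and of imaginal discs were mixed. All 3 larval serum and fat body protein genes were called lower (median -5.38). Fbp2, of the late larval fat body, ranged from 5.29 to 158 FPKM (median 76.9) in adults and from 4337 to 13992 FPKM (median 8102) in larvae (-7.08 ± 0.38 SE, adjusted p = 4.0e-13). The storage protein gene Lsp1beta ranged from 0 to 4.58 FPKM (median 0.392) in adults and from 33.6 to 323 FPKM (median 63.96) in larvae (-5.38 ± 0.41 SE, adjusted p = 1.9e-10). Of 20 ecdysone genes 5 were called higher and 9 lower, and 4 higher and 13 lower (median -1.43) after rescaling. All genes tested gave 49.7% higher and 25.5% lower, and 28.9% and 39.6% after rescaling. ImpE2, induced by ecdysone in discs, was listed at 0 in all 12 adult libraries and ranged from 399 to 4215 FPKM (median 1568) in larvae (adjusted p = 4.3e-19). By contrast ftz-f1, a nuclear receptor of the ecdysone cascade that the egg also receives, ranged from 10.5 to 40.1 FPKM (median 31.1) in adults and from 0 to 0.955 FPKM (median 0) in larvae (4.69 ± 0.24 SE, adjusted p = 2.3e-13). The receptor kinase gene tor, used both in the larval prothoracic gland and by the egg, ranged from 37.4 to 97.2 FPKM (median 71.3) in adults and from 0.299 to 3.51 FPKM (median 1.195) in larvae (4.92 ± 0.26 SE, adjusted p = 2.7e-13). Larvae alone had high ImpE2 and adults alone high tor. Of 20 imaginal disc patterning genes 1 was called higher and 11 lower (median -0.79), and none and 14 after rescaling. The 2 members with both alleles detected at both stages were not called (median 0.47). The Notch ligand gene Ser ranged from 0 to 1.196 FPKM (median 0) in adults and from 4.15 to 18.2 FPKM (median 8.66) in larvae (-2.91 ± 0.26 SE, adjusted p = 2.0e-09). dac, a factor of leg and eye discs, ranged from 0.645 to 5.77 FPKM (median 1.398) in adults and from 8.76 to 27.9 FPKM (median 14.6) in larvae (-2.58 ± 0.27 SE, adjusted p = 1.9e-08). Their levels were low at both stages beside those of the cuticle genes. Est-P, the neighbour and relative of Est-6 in D. melanogaster, ranged from 0 to 6.28 FPKM (median 0) in adults and from 414 to 3010.3 FPKM (median 1404) in larvae (-9.72 ± 0.38 SE, adjusted p = 1.7e-15), against the adult excess of Est-6. Ama, a secreted immunoglobulin-domain protein, ranged from 0 to 5.03 FPKM (median 0) in adults and from 142 to 960.1 FPKM (median 350.5) in larvae (-8.09 ± 0.36 SE, adjusted p = 1.6e-14).

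Genes of sperm were a further group that was higher in larvae. Of 18 testis genes, twe included, 17 were called lower in adults and 1, twe, higher (median -2.32), with the same counts after rescaling. ProtB, a protamine that packs sperm DNA in D. melanogaster, was listed at 0 in all 12 adult libraries and ranged from 50.8 to 309 FPKM (median 267) in larvae (adjusted p = 4.4e-17). The sperm aminopeptidase gene S-Lap4 was listed at 0 in all 12 adult libraries and ranged from 28.9 to 428 FPKM (median 276) in larvae (adjusted p = 9.1e-16). dj, a sperm tail and mitochondrial gene, was listed at 0 in all 12 adult libraries and ranged from 5.51 to 70.9 FPKM (median 34.8) in larvae (adjusted p = 1.4e-11). All 8 testis forms of proteasome subunits were also lower in adults (median -3.77). These 8 count among 24 proteasome genes tested, of which 10 were called lower and 3 higher (median -0.30), and after rescaling 23 lower and none higher. The 14 proteasome genes with both alleles detected at both stages were 3 higher and 2 lower (median 0.07). Prosalpha6T, one of the testis forms, ranged from 0 to 1.104 FPKM (median 0) in adults and from 9.83 to 62.8 FPKM (median 31.6) in larvae (-4.85 ± 0.27 SE, adjusted p = 6.0e-13). The summed level of the testis list in each library is given above.

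Immune genes moved both ways, beside 49.7% higher and 25.5% lower over all genes tested, and 28.9% and 39.6% after rescaling. Of 19 antimicrobial peptide genes 5 were called higher and 9 lower in adults (median -1.49), and 3 higher and 11 lower (median -2.33) after rescaling. Drsl5, of the drosomycin family, ranged from 0 to 297 FPKM (median 38.6) in adults and from 622 to 3264 FPKM (median 2079.5) in larvae (-5.32 ± 0.60 SE, adjusted p = 7.5e-08). The immune-induced gene IM33 ranged from 15.7 to 644 FPKM (median 217) in adults and from 0 to 144 FPKM (median 0) in larvae (6.50 ± 0.81 SE, adjusted p = 3.3e-07). AttA, an attacin, ranged from 2.25 to 367 FPKM (median 40.7) in adults and from 28.3 to 5049.9 FPKM (median 92.8) in larvae (-2.13 ± 0.76 SE, adjusted p = 0.015), with broad overlap between stages. Of 11 haemocyte genes 3 were called higher and 4 lower, and 1 and 7 after rescaling. NimC2, of the Nimrod phagocytosis family, ranged from 0 to 10.5 FPKM (median 0.185) in adults and from 39.8 to 408 FPKM (median 148) in larvae (-6.23 ± 0.50 SE, adjusted p = 3.8e-10). The collagen gene Col4a1 ranged from 28.97 to 70.1 FPKM (median 47.1) in adults and from 1.24 to 32.4 FPKM (median 6.77) in larvae (2.58 ± 0.38 SE, adjusted p = 3.3e-06).

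For detoxification enzymes and ribosomal proteins the balance of directions depended on the scale. So it did over all genes tested (49.7% higher and 25.5% lower as deposited, 28.9% and 39.6% after rescaling). Of 47 genes in the cytochrome P450 list, which was matched by name and so holds Cyp1, a cyclophilin gene called higher as deposited, 21 were called higher and 9 lower (median 0.45), but 15 higher and 18 lower (median -0.13) after rescaling. Cyp4ac1 ranged from 121 to 262 FPKM (median 192) in adults and from 13.9 to 30.7 FPKM (median 16.5) in larvae (3.30 ± 0.18 SE, adjusted p = 3.5e-13). On scaled allele columns its D. sechellia allele differed by 6.68 between stages and its D. simulans allele by 1.26. The species themselves differed by 4.65 and 0.08. Cyp310a1 ranged from 0 to 5.63 FPKM (median 0.175) in adults and from 30.2 to 238 FPKM (median 68.2) in larvae (-5.29 ± 0.41 SE, adjusted p = 2.3e-10). Of 15 glutathione transferase genes 10 were called higher and 1 lower (median 1.06), but 6 and 6 after rescaling (median -0.02). GstS1 ranged from 31.3 to 180.4 FPKM (median 108) in adults and from 5.399 to 29.2 FPKM (median 14.6) in larvae (2.72 ± 0.30 SE, adjusted p = 6.4e-08). Of 48 cytosolic ribosomal protein genes 35 were called higher and 7 lower (median 0.69, close to that of all genes), and 6 higher and 25 lower (median -0.41) after rescaling. RpL36 ranged from 2860.5 to 6122 FPKM (median 5225) in adults and from 946 to 2196 FPKM (median 1514) in larvae (1.74 ± 0.13 SE, adjusted p = 7.8e-11), and after rescaling its difference was 0.65 (adjusted p = 0.0032). On scaled allele columns its D. simulans allele alone gave -0.12 and its D. sechellia allele 2.38. As deposited, the D. simulans allele of RpL36 had a median of 466 FPKM in adults and 847 in larvae. RpL36 is also among the genes X-linked in D. melanogaster that are described below. For these 3 families no common direction is given.

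Smaller lists were mixed, beside 49.7% higher and 25.5% lower over all genes tested as deposited, and 28.9% and 39.6% after rescaling. A list matched by name held gustatory, ionotropic and odorant receptors and ppk sodium channels, together with a5, Orcokinin and OS9. Of its 125 genes in the table, 43 were tested, of which 13 were called higher and 5 lower, and after rescaling 10 and 8 of 45. The sugar receptor gene Gr5a ranged from 0 to 8.75 FPKM (median 0) in adults and from 4.06 to 29.5 FPKM (median 12.1) in larvae (-3.04 ± 0.35 SE, adjusted p = 9.2e-08). Of 15 neuropeptide and hormone genes 3 were higher and 4 lower, and 2 and 5 after rescaling. Pdf, a transmitter of clock neurons, ranged from 82.5 to 521 FPKM (median 296) in adults and from 3.03 to 246 FPKM (median 104) in larvae (1.93 ± 0.54 SE, adjusted p = 0.0029), and after rescaling it was not called (adjusted p = 0.23). Of 5 UDP-glycosyltransferase genes 2 were called in each direction, and 1 higher and 3 lower after rescaling. Of 6 genes in a list of accessory gland names, 2 were called in each direction, and 2 higher and 3 lower after rescaling. One of those called higher was Acph-1, an acid phosphatase that only its name put there. The median of this list was -0.47, while its 1 member with both alleles detected at both stages was called higher (1.39). Acp63F ranged from 0 to 97.2 FPKM (median 8.73) in adults and from 95.1 to 1001 FPKM (median 791) in larvae (-6.45 ± 0.71 SE, adjusted p = 5.3e-08). Of 4 heat shock genes, 2 were higher and 1 lower, and 2 and 2 after rescaling. The small heat shock gene l(2)efl ranged from 66.97 to 221 FPKM (median 147) in adults and from 233 to 1152 FPKM (median 618) in larvae (-2.04 ± 0.20 SE, adjusted p = 9.3e-09). Of 4 genes of yolk and lipid transport, 2 were higher and none lower, and after rescaling 2 and 2. LpR2, a lipoprotein receptor, ranged from 69.1 to 146 FPKM (median 103) in adults and from 5.38 to 25.5 FPKM (median 10.7) in larvae (3.04 ± 0.23 SE, adjusted p = 1.2e-10).

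Whether the stage difference depended on the medium was tested in the same fit. With limma, 0 of 7181 genes (0.0%) were called for stage by current medium and 0 (0.0%) for stage by previous medium, with 500 and 285 genes at an unadjusted p under 0.05. Without larva SO replicate 2 the count for the current medium was 75, and without larva SS replicate 3 that for the previous medium was 2. A fit of all 72 libraries called 247 and 72 genes. The 4 media histories gave stage differences of 10.93 (SS), 11.18 (SO), 11.21 (OS) and 10.94 (OO) for Yp1. For FASN1 they were 5.08, 6.08, 6.62 and 5.76 in the same order, and for Fbp2 -7.36, -6.18, -8.33 and -6.45. On simulated data with each gene's own spread, the test for the current medium called 1% of 2-fold and 34% of 4-fold changes. That for the previous medium called 6% and 37%, so most changes of these sizes would be missed. A gene without a call is not shown to respond alike on both media.

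The hybrid stage difference was then set against that of each parental species, in 1 limma fit of all 72 libraries and 7490 genes. It was above that of D. simulans for 3686 genes (49.2%) and below it for 651 (8.69%), and above that of D. sechellia for 3285 (43.9%) and below it for 818 (10.9%). Both comparisons share the hybrid libraries. For 2560 genes (34.2%) the hybrid lay above both parents and for 318 (4.25%) below both. The balance of directions depended on the scale, and after rescaling 783 genes (10.5%) lay above and 766 (10.3%) below both parents. Against D. simulans the rescaled counts were 1644 (22.0%) above and 1443 (19.3%) below, and against D. sechellia 1521 (20.4%) and 1716 (23%).

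**Figure D3:**
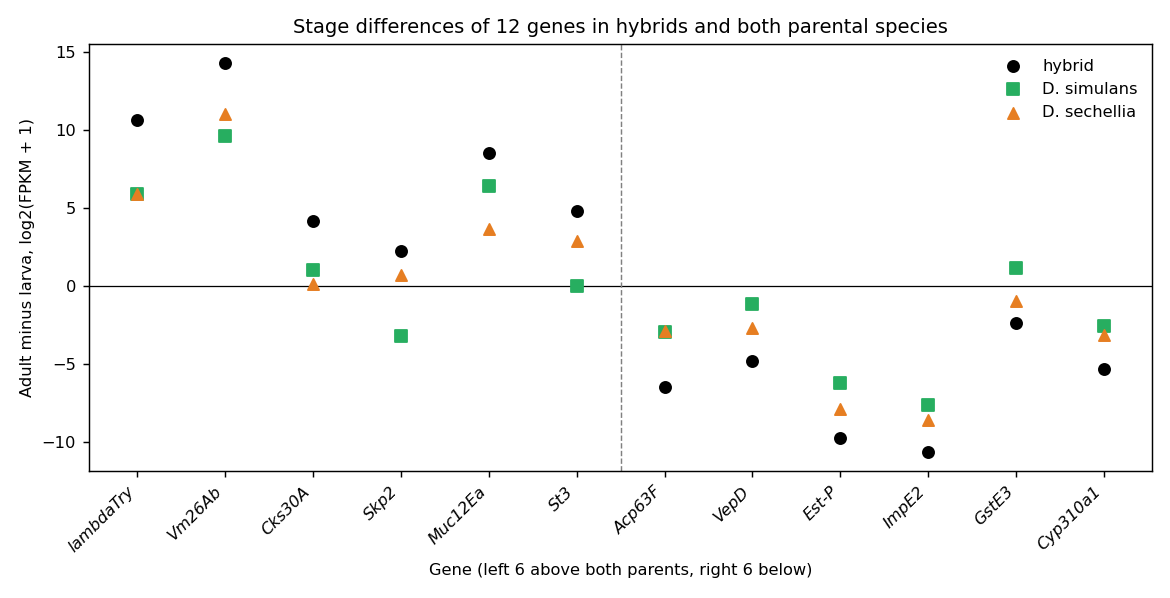
Adult minus larva difference on the log2(FPKM + 1) scale in hybrids (black circles), D. simulans (green squares) and D. sechellia (orange triangles) for the 6 named genes farthest above and the 6 farthest below both parental species. Each symbol is a mean over 4 media histories, and hybrids are the highest or lowest of the 3 genotypes in all 12 genes.

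Among the 6 genes farthest above both parents were 2 already described. In adults Vm26Ab was at 15336 to 25972 (median 21040) FPKM in hybrids, against 771 to 1477 in D. simulans and 399 to 3392 in D. sechellia. Larvae of the 3 genotypes had 0 to 2.40 FPKM, so the difference between genotypes lay in adults. For lambdaTry, adult hybrids had 3413 to 5808 (median 4299) FPKM, above both parents: the FPKM of D. simulans were 114 to 178 in adults and 0 to 27.8 in larvae, and those of D. sechellia 1019 to 1967 and 1.09 to 504. Cks30A, a cell cycle kinase subunit of the female germ line, ranged from 146 to 1386 FPKM (median 464) in adults and from 2.57 to 146 FPKM (median 22.9) in larvae. For it the FPKM of D. simulans were 46.9 to 82.6 in adults and 17.1 to 37.6 in larvae, and those of D. sechellia 17.9 to 274 and 52.3 to 123. The hybrid stage difference exceeded the parental ones by 3.10 ± 0.43 (SE, adjusted p = 4.6e-08) against D. simulans and 4.0 ± 0.43 (SE, adjusted p = 7.6e-11) against D. sechellia. The median of hybrids was the highest of the 3 genotypes in adults and the lowest in larvae. Muc12Ea, a mucin gene, ranged from 182 to 525 FPKM (median 452) in adults and was listed at 0 in all 12 larval libraries, and the FPKM of D. simulans were 52.98 to 127 in adults and 0 to 0.21 in larvae, and those of D. sechellia 0.122 to 137 and 0 to 0.129. Its excess over D. simulans was not called after rescaling (0.93, adjusted p = 0.28). Skp2, a ubiquitin ligase subunit, ranged from 4.93 to 42.97 FPKM (median 17.5) in adults and from 0 to 9.64 FPKM (median 3.202) in larvae, while the FPKM of D. simulans were 0 in every library in adults and 5.01 to 11.1 in larvae, and those of D. sechellia 9.36 to 46.7 and 10.5 to 21.03. St3, a sulfotransferase gene, ranged from 19.9 to 98.8 FPKM (median 55.01) in adults and from 0 to 17.8 FPKM (median 0) in larvae, while the FPKM of D. simulans were 0 in every library in adults and 0 in every library in larvae, and those of D. sechellia 14.03 to 36.5 and 0.747 to 3.96. Both Skp2 and St3 were listed at 0 in all D. simulans adults, and St3 also in its larvae.

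The 6 genes farthest below both parents were higher in hybrid larvae than in hybrid adults. ImpE2 was at 399 to 4215 (median 1568) FPKM in hybrid larvae, while the FPKM of D. simulans were 0 to 2.61 in adults and 21.3 to 647 in larvae, and those of D. sechellia 0 to 0.931 and 165 to 756. For Est-P, at 414 to 3010.3 (median 1404) FPKM in hybrid larvae, the FPKM of D. simulans were 0 in every library in adults and 26.3 to 311 in larvae, and those of D. sechellia 0.113 to 1.17 and 141 to 609. Hybrid larvae had the highest median of the 3 genotypes for both. Acp63F had 95.1 to 1001 (median 791) FPKM in hybrid larvae, and the FPKM of D. simulans were 0 to 2.31 in adults and 5.62 to 29.9 in larvae, and those of D. sechellia 5.85 to 34.5 and 63.5 to 168. Cyp310a1 had 30.2 to 238 (median 68.2) FPKM, and the FPKM of D. simulans were 0.0292 to 0.228 in adults and 3.898 to 10.6 in larvae, and those of D. sechellia 0.118 to 5.16 and 12.01 to 48.4. The hybrid difference of Cyp310a1 departed by -2.72 ± 0.39 (SE, adjusted p = 8.8e-08) against D. simulans and -2.14 ± 0.39 (SE, adjusted p = 8.6e-06) against D. sechellia. VepD ranged from 0 to 128 FPKM (median 1.77) in adults and from 14.5 to 306 FPKM (median 192) in larvae, and the FPKM of D. simulans were 2.59 to 5.12 in adults and 4.52 to 15.02 in larvae, and those of D. sechellia 0 to 13.9 and 8.600 to 38.2. GstE3, a glutathione transferase of the epsilon cluster, ranged from 19.6 to 114 FPKM (median 45.6) in adults and from 89.1 to 465 FPKM (median 237) in larvae. For it the FPKM of D. simulans were 1.39 to 23.4 in adults and 0.508 to 6.04 in larvae, and those of D. sechellia 85.2 to 238 and 169 to 558, so D. simulans had little of it at either stage. Its hybrid difference departed by -3.51 ± 0.35 (SE, adjusted p = 3.1e-12) against D. simulans and -1.40 ± 0.35 (SE, adjusted p = 6.1e-04) against D. sechellia.

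Both autosomal alleles of a hybrid sit in the same cells. Allele ratios were compared between the stages for autosomal and X-linked genes together, since the table gives no positions. For the 2712 genes with both alleles detected at both stages, each allele column was scaled to the same total and the log2 ratio of D. sechellia to D. simulans allele was fitted. With limma, the ratio was higher in adults for 612 genes (22.6%) and lower for 86 (3.17%), with a median shift of 0.39. When each library was centred on its median ratio, 311 (11.5%) were higher and 238 (8.78%) lower. Fitted 1 allele at a time on the scaled columns, both alleles were called higher in adults for 1225 genes and lower for 223. Only 1 allele was called for 765, and the alleles were called in opposite directions for 65. As deposited, D. simulans columns had a median total of 165505 FPKM in adults and 261289 in larvae. For D. sechellia columns these were 905074 and 601784. Scaled differences of 1 allele can therefore depart from the FPKM printed beside them.

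**Figure D4:**
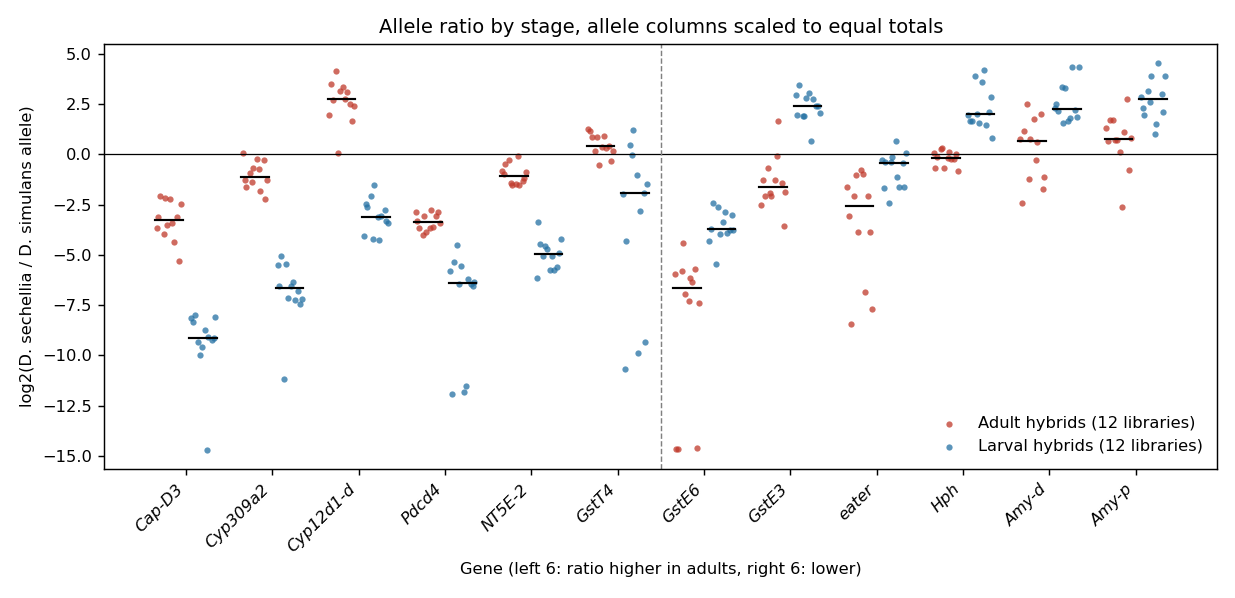
Log2 ratio of the D. sechellia to the D. simulans allele, each allele column scaled to a total of 1000000 with 0.1 added, in 12 adult (red) and 12 larval (blue) hybrid libraries for the 6 named genes with the largest stage change of the ratio in each direction. Black lines are medians, and the stages lie apart for Cap-D3, Cyp309a2, Cyp12d1-d, Pdcd4, NT5E-2 and Hph.

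Several genes had alleles that changed in opposite directions on the scaled columns. Cap-D3, a subunit of a condensin complex, was high in larvae mainly from the D. simulans allele. In adults its D. simulans allele ranged from 9.49 to 41.03 (median 22.8) and its D. sechellia allele from 2.397 to 35.5 (median 12.8) FPKM. In larvae the D. simulans allele ranged from 386 to 1304 (median 821) and the D. sechellia allele from 0 to 8.01 (median 3.43) FPKM. The change of the ratio was 6.08 ± 0.63 (SE) on the log2 scale (limma, adjusted p = 2.3e-06). For Cyp309a2, a cytochrome P450 gene, adults had less of the D. simulans and more of the D. sechellia allele than larvae, with differences of -2.81 for the D. simulans and 2.48 for the D. sechellia allele. In adults its D. simulans allele ranged from 4.401 to 13.1 (median 7.304) and its D. sechellia allele from 8.34 to 43.9 (median 19.6) FPKM. In larvae the D. simulans allele ranged from 49.4 to 138 (median 104) and the D. sechellia allele from 0 to 8.61 (median 1.804) FPKM. Its ratio changed by 5.84 ± 0.51 (SE, adjusted p = 4.4e-07). Cyp12d1-d, a mitochondrial cytochrome P450 gene with a nearly identical neighbour copy in D. melanogaster that may share its reads, behaved alike, with a change of 5.69 ± 0.41 (SE, adjusted p = 5.7e-08). In adults its D. simulans allele ranged from 0.816 to 7.62 (median 2.72) and its D. sechellia allele from 54.3 to 116 (median 93.8) FPKM. In larvae the D. simulans allele ranged from 29.6 to 323 (median 101) and the D. sechellia allele from 6.15 to 72.9 (median 21.6) FPKM. NT5E-2, a nucleotidase gene, changed by 3.97 ± 0.32 (SE, adjusted p = 1.3e-07), with a D. simulans allele that differed by -1.31 and a D. sechellia allele that differed by 2.54 between stages.

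GstE6, a glutathione transferase of the epsilon cluster, was another gene with alleles called in opposite directions. Its ratio changed by -4.73 ± 1.02 (SE, adjusted p = 0.0023), with a D. simulans allele of 263 to 531 (median 421) FPKM in adults and 199.6 to 508 (median 372) in larvae. Its D. sechellia allele was at 0 to 97.5 (median 24.6) FPKM in adults and 20.5 to 152 (median 73.6) in larvae. The differences were 0.94 for the D. simulans and -2.94 for the D. sechellia allele.

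In other genes the alleles differed in the size of their change. Pdcd4, which restrains translation, gave 4.02 ± 0.73 (SE, adjusted p = 5.5e-04). In adults its D. simulans allele ranged from 109.9 to 251 (median 173) and its D. sechellia allele from 54.2 to 142 (median 91.7) FPKM. In larvae the D. simulans allele ranged from 54.8 to 176 (median 105) and the D. sechellia allele from 0 to 8.97 (median 2.95) FPKM. Both alleles were called higher in adults, by 1.44 for the D. simulans and 4.50 for the D. sechellia allele. GstT4, a theta glutathione transferase, gave 3.95 ± 1.08 (SE, adjusted p = 0.011), with a D. sechellia allele at 88.7 to 272 (median 146) FPKM in adults and 0 to 55.6 (median 6.27) in larvae. Its alleles were both called higher in adults too, by 0.99 for the D. simulans and 4.07 for the D. sechellia allele. In the reverse direction, the GstE3 ratio changed by -3.78 ± 0.37 (SE, adjusted p = 1.2e-06). In adults its D. simulans allele ranged from 4.72 to 30.3 (median 13.1) and its D. sechellia allele from 10.4 to 92.5 (median 25.9) FPKM. In larvae the D. simulans allele ranged from 5.48 to 47.8 (median 18.4) and the D. sechellia allele from 83.7 to 417 (median 218.1) FPKM. On the scaled columns the stage difference was 0.29 for the D. simulans and -3.45 for the D. sechellia allele. The first was not called (limma, adjusted p = 0.34), and as deposited its median was lower in adults. Hph, the oxygen-sensing prolyl hydroxylase gene, gave -2.50 ± 0.32 (SE, adjusted p = 2.5e-05), and its D. simulans allele differed by 1.93 and its D. sechellia allele by -0.49 between stages. The phagocytosis receptor gene eater gave -2.74 ± 0.86 (SE, adjusted p = 0.025), and with weights by stage it was not called. The amylase genes Amy-d and Amy-p gave -2.38 ± 0.57 (SE, adjusted p = 0.0049) and -2.05 ± 0.49 (SE, adjusted p = 0.0045). Their D. simulans columns hold the same values, so the 2 copies were not told apart there, and neither was called with the allele columns as deposited.

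Some of the genes whose alleles moved in opposite directions are X-linked in D. melanogaster. X linkage was taken from that species, since the table gives no positions, in a list made after the values were seen, so it is described without a test of the list. Males carry a single X, inherited from the mother, and females 1 from each parent. Of 109 such genes in the table, 34 had both alleles detected at both stages. With library-centred ratios 24 of the 34 were called with a higher D. sechellia share in adults (11.5% of all genes tested) and none lower (8.78%), with a median of 1.99 against -0.02 for all genes. Of the 65 genes with alleles called in opposite directions, 16 were on the list. Off the list, 287 genes were called higher and 238 lower. The 34 include no CG-numbered gene, so genes off the list may be X-linked too and cannot be read as autosomal.

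The genes named next were chosen after their values were seen. The integrin gene mys is one of them. Its D. simulans allele ranged from 7.43 to 16.6 FPKM in adults and 18.9 to 62.99 in larvae, and its D. sechellia allele from 45.02 to 85.4 and 1.000 to 82.1 FPKM. The centred ratio was 2.67 ± 0.47 (SE, adjusted p = 6.2e-04) higher in adults. For trol, a perlecan of basement membranes, the D. simulans allele ranged from 3.94 to 13.9 FPKM in adults and 16.95 to 59.997 in larvae, and its D. sechellia allele from 16.95 to 36.9 and 0.602 to 18.9 FPKM, a change of 3.32 ± 0.33 (SE, adjusted p = 1.9e-06). As deposited, the larval median was 7.31 FPKM for the D. sechellia and 30.7 for the D. simulans allele of mys, and 3.54 and 32.03 for those of trol. On the centred scale the mean ratio was -0.23 in adults and -2.89 in larvae for mys, and -0.62 and -3.94 for trol. Pgd, of the pentose phosphate pathway, changed by 2.68 ± 0.24 (SE, adjusted p = 6.7e-07), and the kinase gene sgg by 1.57 ± 0.47 (SE, adjusted p = 0.024). The gene pot was the only 1 of the 34 with a negative difference, -0.13 ± 0.36 (SE, adjusted p = 0.85).

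**Figure D5:**
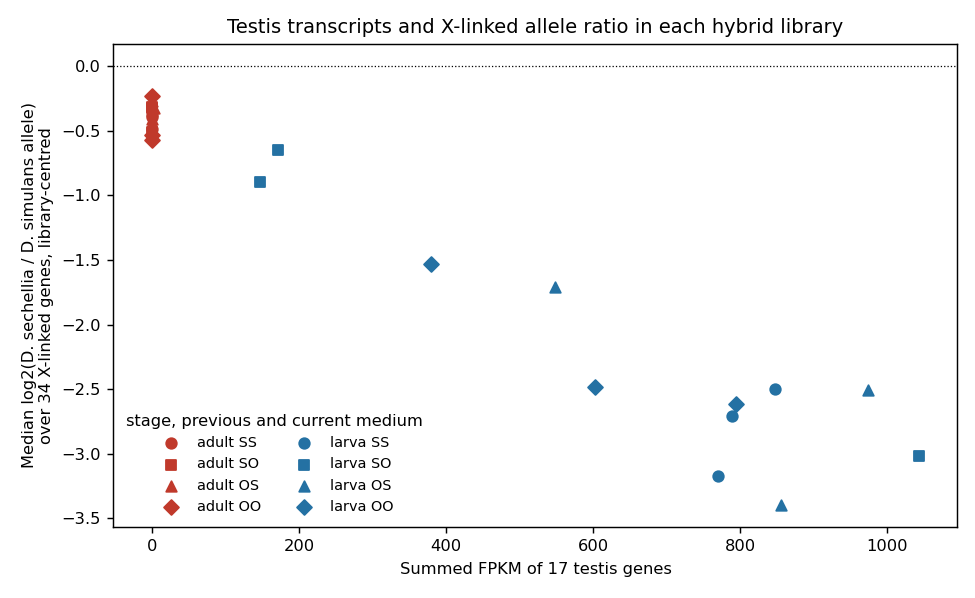
Median library-centred log2 ratio of D. sechellia to D. simulans allele over 34 genes that are X-linked in D. melanogaster (vertical axis) against the summed FPKM of 17 testis genes (horizontal axis), 1 point per hybrid library. Adults (red) lie between -0.57 and -0.24 with 0 to 2.67 FPKM of testis transcripts, and larvae (blue) between -3.39 and -0.65 with 147 to 1043 FPKM.

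Library by library, this X-linked ratio ran beside the testis transcripts. Its median over the 34 genes was -0.57 to -0.24 in adults and -3.39 to -0.65 (median -2.50) in larvae, so all larvae lay below all adults. The 2 larval libraries with the least testis RNA, SO replicates 3 and 1, had the ratios nearest to adults, -0.65 and -0.90. Next came OO replicate 3 with 379 FPKM and -1.53, and OS replicate 3 with 549 FPKM and -1.71. The other 8 larval libraries had 602 to 1043 FPKM and ratios of -3.39 to -2.49. Genes off the list had a library median of 0.00 to 0.03, which the centring sets. The testis transcripts themselves came from both alleles, with 24.01 to 258 FPKM from D. simulans and 123 to 785 FPKM from D. sechellia columns in larvae. The part of the larval pools' sex in the X-linked ratios, and in the stage differences of X-linked genes, was not tested.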

How the data were processed

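The authors' deposited table gives FPKM for 7836 genes, with 48 columns for parental libraries and 48 for the alleles of the 24 hybrid libraries. Per the submitters' processing notes, FastQC, Bowtie2 and Cufflinks were used. Their versions, the genome builds and the way hybrid reads were split by allele are unknown here, since no source used names them. The allele columns were added, log2(FPKM + 1) was fitted with limma 3.58.1 in R 4.3.3 with a mean-variance trend and 1 mean per group (8 groups of hybrids, or 24 in all), and Benjamini-Hochberg adjustment ran over all genes of a contrast. Genes needed 1 FPKM in 3 libraries. Allele columns were scaled to a total of 1000000 before ratios were formed with a pseudocount of 0.1. The same scaling came before 1 allele was fitted alone, with 1 added. FPKM keep no read depth, so no interval for counting error is given. All adjusted p come from limma and are two-sided. Nothing says that replicates came from separate cultures, so p-values measure the spread between these libraries.

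Genes, lists and tests were chosen with earlier results of these data known. Named genes have both alleles detected at a stage and no CG or CR number. They are the 12 largest called stage differences in each direction with a mean of at least 5 FPKM, at most 4 per list (by p, over 38 lists), and 6 in each direction for differences from both parents and for allele ratios. The list of X-linked genes, the 17 testis genes without twe, the fits of 1 allele column alone and the weights by genotype and stage were added after seeing the data. The rest of the alternatives are named in the closing part. The fits were tested on simulated data with each gene's own spread. With a spread that differs between genotypes, the contrasts of hybrids with a parent made more false calls there than their nominal rate. Same-numbered replicates did not pair: the 84 pairs of same-numbered libraries from different groups had a median correlation of deviations of 0.0062. Reference sequences or positions under the table's gene names were not used here, and 0 names matched the gene table at hand. Summaries used Python 3.11.15 with numpy 2.4.6 and pandas 2.3.3, and plots matplotlib 3.10.9.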

Additional observations from a re-analysis of the deposited data

Results flagged for a closer look

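The stage difference of 12 genes was tested against each parental species in 1 limma fit, and both tests passed for each gene. All values are hybrid minus parental stage differences on the log2(FPKM + 1) scale. Whether summed allele columns and parental columns share 1 scale is not known. They depend on the added 1 where a group is listed at 0, as in hybrid larvae for Vm26Ab and Muc12Ea, in hybrid adults for ImpE2, and in D. simulans for Skp2, St3 and Est-P. Above both parents, Vm26Ab differed by 4.65 from D. simulans and 3.24 from D. sechellia. For lambdaTry the differences were 4.72 from D. simulans and 4.72 from D. sechellia. Cks30A differed by 3.10 from D. simulans and 4.0 from D. sechellia, Skp2 by 5.46 from D. simulans and 1.56 from D. sechellia, Muc12Ea by 2.10 from D. simulans and 4.88 from D. sechellia and St3 by 4.85 from D. simulans and 1.94 from D. sechellia. Below both parents, Acp63F differed by -3.54 from D. simulans and -3.57 from D. sechellia and VepD by -3.65 from D. simulans and -2.15 from D. sechellia. Est-P differed by -3.50 from D. simulans and -1.85 from D. sechellia, ImpE2 by -3.02 from D. simulans and -2.02 from D. sechellia, GstE3 by -3.51 from D. simulans and -1.40 from D. sechellia and Cyp310a1 by -2.72 from D. simulans and -2.14 from D. sechellia.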

How the results depend on the processing

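Median-ratio rescaling, no filter, a pseudocount of 0.1, limma without trend, weights by stage, columns scaled before the sum, only genes with both alleles, all 72 libraries and each library left out were tried. Leaving out 1 library gave 5294 to 5430.0 calls for stage, against 5402 with all, and 4422 to 4590.0 past 2-fold. It gave 0 to 75 for stage by current medium, 0 to 2 for stage by previous medium, 2721 to 3075 outside both parents and 618 to 752 for allele by stage. Without larva SO replicate 2 the first of these interactions had 75 calls and the second 1, without larva OO replicate 1 the first had 2, without adult OO replicate 2 it had 1, and without larva SS replicate 3 the second had 2. With no filter these interactions had 2 and 1 calls, with all 72 libraries 247 and 72, and the D. simulans column alone gave 1 for the previous medium. Rescaling left 1549 genes outside both parents, and weights by genotype and stage, added after seeing the data, 2457. Allele by stage had 2283 calls with columns as deposited and 284 with at least 5 FPKM throughout, where only 756 genes were tested. The median stage difference of all genes was -0.23 after rescaling and 1.14 over genes with both alleles. After rescaling Gp93 (-0.55) and Hsc70-3 (-0.91) reversed. With the D. simulans column alone Gp93 (-0.11), GstE3 (0.29), RpL36 (-0.12) and RpS19a (-0.079) reversed, as did apolpp with the D. sechellia column (0.67) and Hsc70-3 without larva SO replicate 1 (-0.00333, up to 0.35 without larva SO replicate 3). Causes were not tested. Of 5215 pairs of a gene and an alternative for the stage difference, 5165 kept direction and call, 26 lost the call, 16 gained it and 8 reversed. With the replicate number as a block, stage had 5432 calls, the media interactions 0 and 0, the hybrid difference outside both parents 2898 and the allele ratio 699, and 11 of 24 libraries correlated best with their own number. Read depth is unknown, which limits every low value.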
